A study of Mus musculus with 6 samples.

Results

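*Trnp1*, *St6galnac2* and *BC018473* were all below 1 FPKM in LSK cells of control mice, where *St6galnac2* and *BC018473* had almost no reads, and averaged 31.5, 0.768 and 5.20 FPKM in *Myh9*-deficient LSKs. They were chosen by their values in this same contrast, from a table of 54532 genes, and together hold 4 rows of it, because the symbol *St6galnac2* stands on a pair of rows. Their own difference between the groups is therefore described without a test, while genes that lie beside them on the chromosome, which were picked by position, were tested. LSK cells are the lineage-negative, Sca1-positive and c-Kit-positive bone marrow fraction that holds haematopoietic stem and progenitor cells. RNA was sequenced from 6 libraries of LSKs sorted from C57BL/6 mice. Control libraries (n = 3) came from *Myh9*fl/fl;no cre littermates and *Myh9*-deficient libraries (n = 3) from *Myh9*fl/fl;*Mx1*-cre mice. Both groups carried the floxed *Myh9* alleles and both received poly I:C at 5 mg/kg body weight, an RNA mimic that raises interferon. LSKs were taken on day 4 after the first injection, at 100000 cells per library. The *Mx1* promoter responds to interferon and drives cre outside blood cells too, and how many mice stood behind each library is not stated, so all p-values measure the spread between these samples.

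TRNP1, the TMF1-regulated nuclear protein 1, is a small chromatin-associated protein best known from neural progenitors, where it promotes self-renewal and affects the folding of the cerebral cortex, and it has been linked to the SWI/SNF (BAF) chromatin remodelling complex. ST6GALNAC2 is a Golgi sialyltransferase that places sialic acid in α2,6 linkage on the N-acetylgalactosamine at the base of O-glycans, the sugar chains on serine and threonine of mucin-type proteins. *BC018473* is a non-coding RNA gene of no described function.

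Each library held 17571544 to 19894562 reads on genes, recovered from the deposited FPKM (fragments scaled to gene length and to a size factor of the library). *Myh9*, the targeted gene of the non-muscle myosin IIA heavy chain, went from 22.5 ± 0.495 FPKM in control to 18.7 ± 1.18 FPKM in *Myh9*-deficient libraries (SD, n = 3 each; log2 difference -0.26, limma adjusted p = 0.00642), so most of its transcript signal was still present. All 4 LSK markers were present in both groups, and their levels summed to 201 to 205 FPKM in control, against 203 to 212 FPKM in *Myh9*-deficient libraries. Within that sum 1 gene was higher and 2 were lower in *Myh9*-deficient LSKs without overlap between the groups: *Flt3*, a cytokine receptor gene of multipotent progenitors, went from 19.8 ± 0.780 to 30.1 ± 1.18 FPKM, *Kit* from 23.9 ± 0.454 to 21.5 ± 0.334 FPKM and *Ly6a*, the gene of Sca1, from 95.4 ± 1.87 to 89.5 ± 3.63 FPKM (SD, n = 3 each). Of markers of other cell types, 5 of 6 erythroid, 4 of 5 megakaryocyte, 5 of 5 mast cell and basophil, 4 of 6 plasma cell and B cell and 3 of 5 T and NK cell genes were higher in *Myh9*-deficient LSKs without overlap between the groups, against 0 of 6 neutrophil and monocyte, 1 of 3 macrophage and 1 of 5 endothelial and stromal genes. The reverse held for 3 neutrophil and monocyte genes and for 1 gene each of the plasma cell and B cell, macrophage and endothelial and stromal lists. Groups that did not overlap were found for 54.0% of all genes tested, in either direction.

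*Trnp1* (ENSMUSG00000056596) lies on chromosome 4 from 133491100 to 133498550, minus strand, in the mm10 (GRCm38) coordinates of the table. It has 2 annotated transcripts, the longer with 2 exons and 1654 bases, and no annotated gene overlaps it. Its promoter is shown because *Trnp1* reached the highest level of the 3 genes in *Myh9*-deficient LSKs. The stretch below, from RefSeq (GRCm38.p6), covers chr4:133498551-133498800 and is written 5′ to 3′ on the strand of *Trnp1*, ending at the base before the transcription start. Of *Trnp1*, *St6galnac2* and *BC018473*, 1 had an entry among the promoter sequences used here.

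Trnp1: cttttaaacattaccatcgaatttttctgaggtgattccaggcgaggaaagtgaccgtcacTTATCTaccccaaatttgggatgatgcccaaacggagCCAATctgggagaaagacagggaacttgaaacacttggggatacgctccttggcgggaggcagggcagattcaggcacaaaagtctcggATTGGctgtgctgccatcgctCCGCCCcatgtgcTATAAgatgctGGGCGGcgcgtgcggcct

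Capitals mark the motifs that were found on either strand. TATAA, the core of a TATA box, begins 29 bases before the start and occurs in 22.8% of 32851 promoter stretches of the same length. CCAAT, the letters read by the NF-Y factor, occurs on the plus strand at 152 and on the minus strand at 63 bases before the start, and is held by 33.8% of promoters. GGGCGG, the GC box read by SP1 and its relatives, begins at 18 bases (plus strand) and 42 bases (minus strand) before the start and is held by 32.7%. AGATAA, a form of the GATA factor motif, occurs 1 time on the minus strand, 189 bases before the start, and is held by 9.99%. The core of the interferon-stimulated response element, a pair of TTTC runs with any 2 bases between them, was not among the letters of this stretch and is held by 2.98% of promoters. None of the marked motifs overlap each other, and a match describes the letters without showing that a factor binds there.

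*Trnp1* measured 0.912, 0.858 and 0.599 FPKM in the 3 control libraries and 33.0, 31.1 and 30.4 FPKM in the 3 *Myh9*-deficient libraries. The control libraries were all below 1 FPKM, the *Myh9*-deficient libraries lay within a narrow band near 31 FPKM, and the lowest of these was 33.4 times the highest control. These levels came from 30, 25 and 19 reads in control, against 1021, 937 and 937 reads in *Myh9*-deficient libraries, so *Trnp1* was detected in every library of either group. The means were 0.789 ± 0.168 and 31.5 ± 1.31 FPKM (SD, n = 3 each), a ratio of 39.9, and the pooled reads gave a ratio of 40.5 with an exact 95% interval of 32.1 to 51.7. Such intervals take in the error of counting alone, because the reads were pooled over the libraries of each group. They leave out the spread between libraries. No molecular identifiers were used, so duplicate reads could make them too narrow even for counting. The *Myh9*-deficient libraries differed by a coefficient of variation of 4.16%, where counting alone would give 3.22%. In control LSKs, 45.8% of expressed genes stood below *Trnp1*, and in *Myh9*-deficient LSKs 91.2% did. In sorted cells pooled into a library, many cells with a little transcript and few cells with much of it cannot be told apart.

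**Figure D1:**
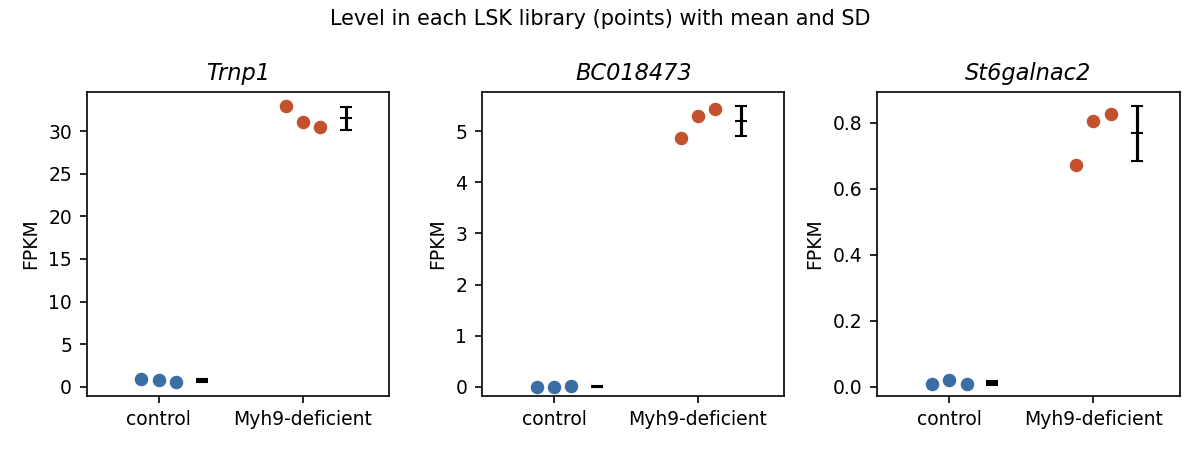
FPKM of *Trnp1*, *BC018473* and *St6galnac2* (a linear axis for each gene) in 3 control and 3 *Myh9*-deficient LSK libraries, 1 point for each library in the order of its number, with the mean and SD of each group as a bar beside the points. Control points lie at or near 0 in each panel, and no *Myh9*-deficient library comes near them; the plateau differs between the genes, at 31.5, 5.20 and 0.768 FPKM.

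*BC018473* (ENSMUSG00000056032) lies on chromosome 11 from 116752167 to 116759373, plus strand. The table types it as an antisense gene, but no annotated gene overlaps it in GENCODE M21. Its 4 transcripts span 5471 exonic bases in all. It stood at 0, 0 and 0.00952 FPKM in the control libraries, against 4.87, 5.30 and 5.42 FPKM in the *Myh9*-deficient libraries. All control reads of *BC018473* amounted to 1, in control replicate 3, against 499, 529 and 552 reads in the *Myh9*-deficient libraries. The groups did not overlap, and control replicates 1 and 2 gave no read, which allows up to 3 reads in each at this depth. The ratio of pooled reads, 1 against 1580, was 1634 with an exact 95% interval of 293 to 64580, a range set by the single control read. In *Myh9*-deficient LSKs the level averaged 5.20 ± 0.291 FPKM (SD, n = 3), above 69.1% of expressed genes, with a coefficient of variation of 5.59% where counting alone would give 4.36%.

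*St6galnac2* (ENSMUSG00000057286) lies on the same chromosome from 116675303 to 116694868, minus strand, and its end is 57.3 kb from the start of *BC018473*. It has 5 transcripts, the longest with 9 exons, and 5790 exonic bases in all. It was listed at 0.00869, 0.0196 and 0.00900 FPKM in the control libraries and reached 0.673, 0.805 and 0.826 FPKM in the *Myh9*-deficient libraries. Its reads numbered 1, 2 and 1 in control, against 73, 85 and 89 in *Myh9*-deficient libraries. The groups were again well apart, with the lowest *Myh9*-deficient library at 34.4 times the highest control, but the gene stayed below 1 FPKM in every library and outside the genes tested with limma. The ratio of pooled reads, 4 against 247, was 63.9 (exact 95% interval 24.6 to 236). The *Myh9*-deficient mean of 0.768 ± 0.0829 FPKM (SD, n = 3) stood above 46.3% of expressed genes, close to the place that *Trnp1* held in control, and its coefficient of variation of 10.8% was no wider than counting alone would give. The other row of this symbol (ENSMUSG00000110170, chromosome 11 from 116677483 to 116681290, inside the first) held no read except 1 in *Myh9*-deficient replicate 2. In the *Myh9*-deficient libraries the FPKM of *St6galnac2* was 13.8%, 15.2% and 15.2% of that of *BC018473*, which in turn was 14.8%, 17.1% and 17.8% of that of *Trnp1*.

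The kit used for the libraries does not mark the strand, so reads of overlapping genes cannot be separated. *St6galnac2* shares 497 bases with *1810032O08Rik*, which runs on the other strand and is expressed in both groups. Of 7033 different runs of 50 bases in *St6galnac2* transcripts, 448 (6.37%) also occur in *1810032O08Rik* and in no other gene. No such run of *Trnp1* (of 1653) or of *BC018473* (of 5515) occurs in a transcript of another gene. *1810032O08Rik* itself went from 11.4 ± 0.103 to 12.6 ± 0.189 FPKM (SD, n = 3 each; log2 difference 0.13, limma adjusted p = 0.0183), while voom on the reads gave a log2 difference of 0.16 that did not pass (adjusted p = 0.0545). Its part in the reads of *St6galnac2* was not tested.

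*St6galnac2* and *BC018473* start 76.86 kb apart, and the genes that lie around and between them were mostly too low for the filter of 1 FPKM. These low genes were therefore described by their recovered reads, and those named here were picked after their values were seen. A voom test on genes with at least 10 reads in all, also a later choice, is given for the low genes *Prcd* and *Mxra7*. It also stands beside limma for the expressed genes *1810032O08Rik* and *Nudc*. *Cygb*, *St6galnac1*, *Gm11735* and *Tent5b* reached 10 reads only through the *Myh9*-deficient libraries and are given without a test. *Kdf1* reached 10 reads through the control libraries, where it was higher, and is likewise given without a test. Beside *St6galnac2* lies *Cygb*, the gene of the haem protein cytoglobin, with 0 reads in all control libraries, against 8, 7 and 14 in *Myh9*-deficient libraries. *St6galnac1*, the nearest relative of *St6galnac2* in function, lies on the far side of *BC018473* and had 0 reads in all control libraries, against 6, 11 and 16 in *Myh9*-deficient libraries. Between *St6galnac2* and *BC018473*, the unprocessed pseudogene *Gm11735* had 0 reads in all control libraries, against 5, 1 and 8 in *Myh9*-deficient libraries. All 3 genes were thus listed at 0 throughout the control group and were read in every *Myh9*-deficient library, at far lower numbers than *BC018473*. With 3 reads put in place of 0 over the control group, the ratio would be 11.4 for *St6galnac1*, 9.998 for *Cygb* and 4.83 for *Gm11735*. The few reads of the *Myh9*-deficient libraries are taken as exact there, so these ratios are not lower bounds.

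In other low genes around *BC018473* and *St6galnac2* the groups overlapped. *Prcd*, a photoreceptor disc protein gene that overlaps *Cygb*, had 6, 8 and 6 reads in control, against 5, 12 and 6 in *Myh9*-deficient libraries (voom adjusted p = 0.876). *Mxra7*, a matrix-remodelling-associated gene beyond *St6galnac1*, had 16, 22 and 22 against 36, 26 and 21 reads (voom adjusted p = 0.315). The stretch from the start of *Cygb* to the end of *St6galnac1* runs over 129.9 kb (chr11:116645595-116775507) and holds 11 rows of the table. Over the whole table, 180 of 24337 genes with reads (0.74%) had no control read and a read in every *Myh9*-deficient library, and 8 of these were on chromosome 11 and 10 on chromosome 4. *Cygb*, *Gm11735* and *St6galnac1* are among the 8, and the ends of the stretch were drawn at *Cygb* and *St6galnac1* themselves, so their place in it is no result. A further 72 genes had the reverse pattern.

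**Figure D2:**
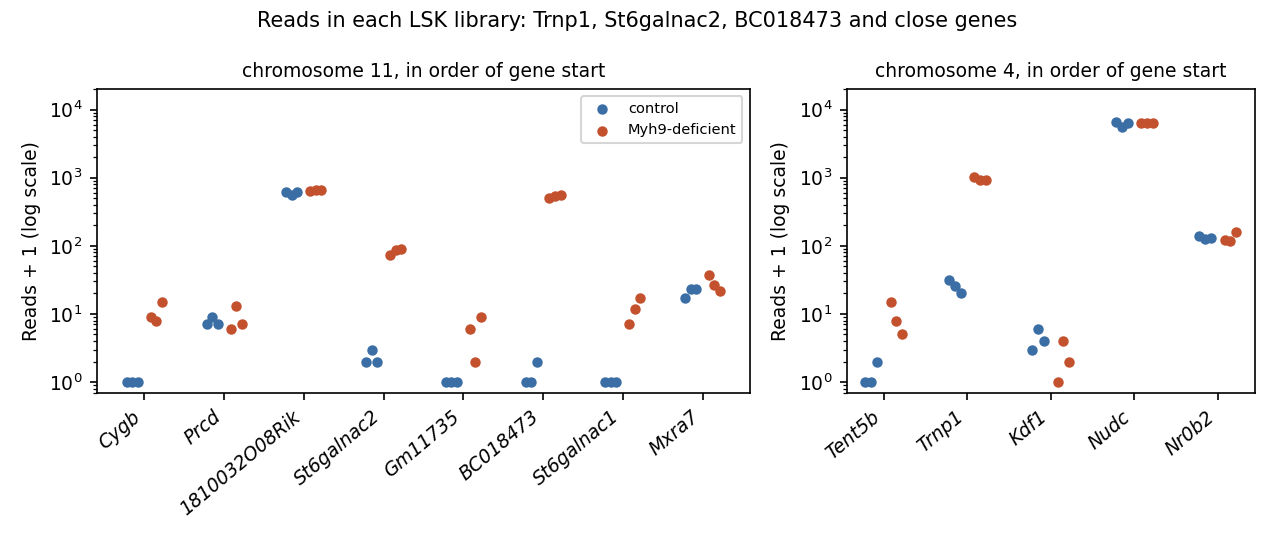
Reads plus 1 (log axis) in each of 3 control and 3 *Myh9*-deficient LSK libraries for genes around *St6galnac2* and *BC018473* on chromosome 11 and around *Trnp1* on chromosome 4, placed in order of gene start without regard to distance. *Cygb*, *Gm11735* and *St6galnac1* sit at 0 reads in control and between 1 and 16 reads in *Myh9*-deficient libraries, while *Prcd*, *1810032O08Rik*, *Mxra7*, *Nudc* and *Nr0b2* have reads in nearly all libraries of both groups.

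Beside *Trnp1*, the nearest gene is *Tent5b*, which encodes a terminal nucleotidyltransferase and ends 3.162 kb before *Trnp1* begins in coordinates. *Tent5b* had 0, 0 and 1 reads in control, against 14, 7 and 4 in *Myh9*-deficient libraries. The groups did not overlap, but even the highest library had few reads. The pooled ratio was 25.9 and rests on a single control read. On the other side, *Kdf1*, a regulator of keratinocyte differentiation, had 2, 5 and 3 against 0, 3 and 1 reads, and the groups overlapped.

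Among genes that averaged 1 FPKM or more, those within 1 Mb of *Trnp1* were called about as often as the rest of the genome. The share was higher in the other windows, with 9 of 18 called within 0.5 Mb and 35 of 68 within 2 Mb. Within 1 Mb of the start of *Trnp1*, 37 of 83 genes were tested with limma, and 15 (40.5%) passed an adjusted p of 0.05, 6 of them higher and 9 lower after *Myh9* loss. Over all genes tested the share was also 40.5% (4673 of 11552). Their log2 differences ran from -0.80 to 0.48 with a median of 0.0059, against a median of -0.0096 over all genes tested. None of these 37 neighbours passed at more than 2-fold, which 2.09% of all genes tested did, while *Trnp1* differed by 4.19 on the same log2(FPKM + 1) scale. Groups did not overlap for 20 of the 37 (54.1%).

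The 10 expressed genes nearest to *Trnp1* were 5 on each side. *Map3k6*, a MAP kinase kinase kinase, rose from 2.77 ± 0.187 to 4.18 ± 0.120 FPKM (SD, n = 3 each; log2 difference 0.46, limma adjusted p = 0.00128), and *Tmem222*, a membrane protein gene, rose slightly (log2 difference 0.19, limma adjusted p = 0.0391). *Wdtc1*, which encodes a WD and tetratricopeptide repeat protein, fell from 13.3 ± 0.211 to 9.11 ± 0.808 FPKM (log2 difference -0.50, limma adjusted p = 0.00104). *Sytl1*, *Nudc*, *Nr0b2*, *Gpatch3*, *Gpn2* and *Sfn* did not pass. The expressed gene closest on the upstream side of *Trnp1* was *Nudc*, a dynein-associated chaperone gene, at 228 ± 4.45 FPKM without and 239 ± 3.38 FPKM with *Myh9* deletion (limma adjusted p = 0.0742, voom adjusted p = 0.0138).

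**Figure D3:**
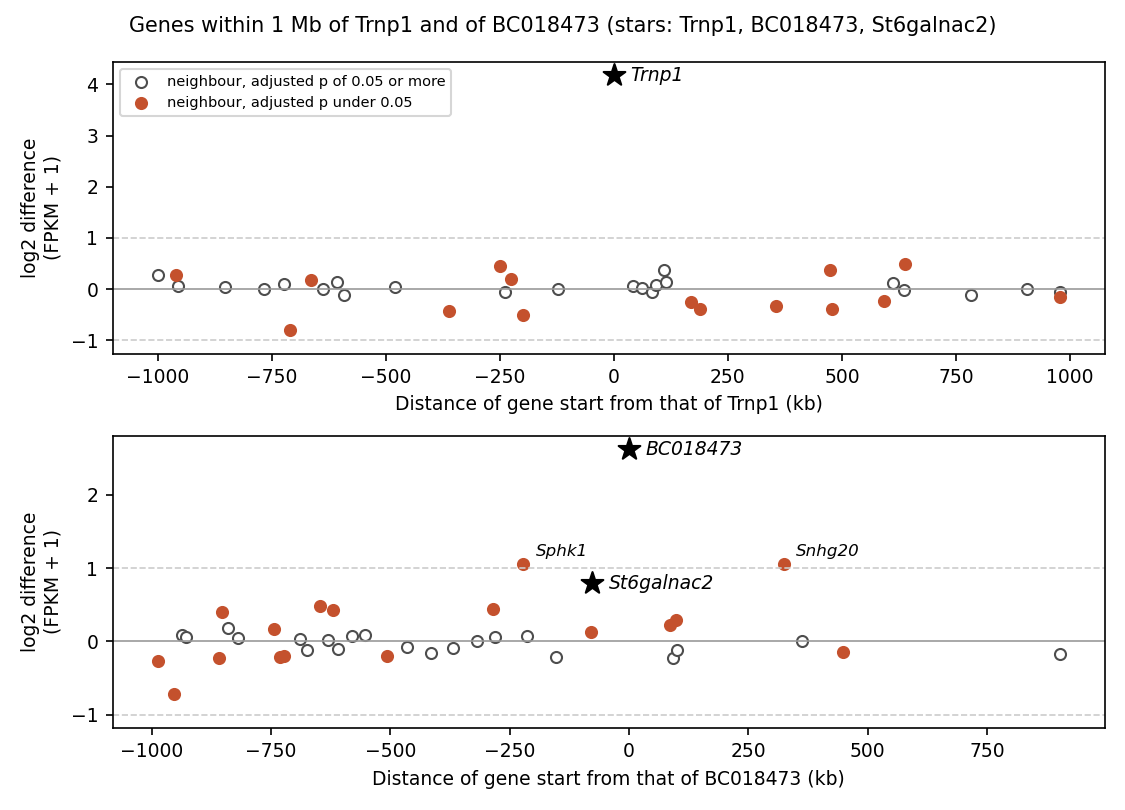
Log2 difference of FPKM + 1 (*Myh9*-deficient minus control, 3 libraries each) of genes averaging 1 FPKM or more against the distance of their start from that of *Trnp1* (upper panel) and *BC018473* (lower panel), with filled points for a limma adjusted p under 0.05, dashed lines at 2-fold and stars for *Trnp1*, *BC018473* and *St6galnac2*. Around *Trnp1* all neighbours lie between -0.80 and 0.48, and around *BC018473* *Sphk1* and *Snhg20* are the neighbours that pass the upper dashed line.

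The surroundings of *St6galnac2* and *BC018473* overlap almost entirely. Within 1 Mb of the start of *St6galnac2*, 39 of 86 genes were tested and 17 (43.6%) were called by limma, 10 higher and 7 lower, with a median log2 difference of 0.030. Within 1 Mb of *BC018473*, 38 of 83 genes were tested and 17 (44.7%) were called, again 10 higher and 7 lower, with a median of 0.023. Groups did not overlap for 21 genes in either window (53.8% and 55.3%). These shares stand near those over all genes tested. In either window, 2 genes passed at more than 2-fold on the log2(FPKM + 1) scale. *Sphk1*, which encodes sphingosine kinase 1, rose from 4.35 ± 0.316 to 10.1 ± 0.298 FPKM (SD, n = 3 each; log2 difference 1.06, limma adjusted p = 3.57e-05), and *Snhg20*, a small nucleolar RNA host gene, rose from 9.94 ± 0.679 to 21.7 ± 1.43 FPKM (log2 difference 1.05, limma adjusted p = 6.52e-05). Unlike *St6galnac2* and *BC018473*, both were well expressed in control LSKs. *Caskin2*, named after its value was seen, was called lower (log2 difference -0.72, limma adjusted p = 0.00339) inside that cut. Its mean fell from 1.57 to 0.571 FPKM, a ratio of 0.364, because adding 1 narrows the difference of a low gene.

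The 10 expressed genes nearest to *St6galnac2* and to *BC018473* were the same 10, and 5 of them were called by limma, all higher, where 40.5% of all genes tested were called (2295 higher and 2378 lower of 11552). Of these, *1810032O08Rik*, did not pass with voom. Beside *Sphk1*, *Snhg20* and *1810032O08Rik*, these were *Srsf2*, a splicing factor gene that rose from 183 ± 3.53 to 224 ± 6.18 FPKM (log2 difference 0.29, limma adjusted p = 0.00049), and *Jmjd6*, a JmjC-domain dioxygenase gene (log2 difference 0.22, limma adjusted p = 0.0394). *Prpsap1*, *Ube2o*, *Rhbdf2*, *Mettl23* and *Mfsd11* did not pass, *Mettl23* with a log2 difference of -0.23 (limma adjusted p = 0.0653).

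Beside *St6galnac1*, the *St6galnac* family holds 4 other sialyltransferases. *St6galnac4* and *St6galnac6*, which act on O-glycans and on gangliosides, were the members expressed in both groups, at 14.7 ± 0.793 and 15.3 ± 0.268 FPKM (SD, n = 3 each; limma adjusted p = 0.364) and at 11.1 ± 0.291 and 10.2 ± 0.465 FPKM (limma adjusted p = 0.0721) in control and *Myh9*-deficient LSKs. *St6galnac3* stayed under 1 FPKM, at 0.584 ± 0.0109 and 0.784 ± 0.144 FPKM, and *St6galnac5* had 6 reads in control, against 4 in *Myh9*-deficient libraries. *St6galnac1* and *St6galnac2*, neighbours on chromosome 11, were the family members with almost no reads in control and reads in every *Myh9*-deficient library.

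Sialic acid is made, activated, moved into the Golgi, added by sialyltransferases and removed by neuraminidases. Of 33 further genes of this pathway and of the O-glycan cores it caps, 19 were tested with limma and 8 (42.1%) were called, 3 higher and 5 lower, with a median log2 difference of -0.09. That share is near the 40.5% called over all genes tested, whose median was -0.0096. With values rescaled to TPM the calls were 1 higher and 6 lower, and without the filter on low values 4 higher and 4 lower. No tested gene passed at more than 2-fold, and 5 were called without control replicate 3 and without *Myh9*-deficient replicate 2 or 3. Genes below the filter were not tested. Among them *St3gal6* (133 against 274 reads) and *St6gal1* (73 against 160) were higher without overlap, and none was lower without overlap. Both were named after their values were seen. *St3gal5*, the synthase of the ganglioside GM3, rose from 4.64 ± 0.580 to 8.02 ± 0.269 FPKM (log2 difference 0.68, limma adjusted p = 0.000942), and small rises were seen for *C1galt1*, which builds the core 1 O-glycan (0.19, limma adjusted p = 0.0462), and *St3gal1*, which caps it (0.17, limma adjusted p = 0.0443). *St8sia4*, a polysialyltransferase, fell from 3.66 ± 0.098 to 2.18 ± 0.0142 FPKM (log2 difference -0.55, limma adjusted p = 0.000352). *C1galt1c1*, the chaperone of the core 1 synthase, fell from 15.9 ± 0.562 to 11.4 ± 0.155 FPKM (-0.45, limma adjusted p = 0.000243), and *St3gal3* fell with a log2 difference of -0.37 (limma adjusted p = 0.00971). *Gcnt3* and *Neu2* had no read in any library.

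**Figure D4:**
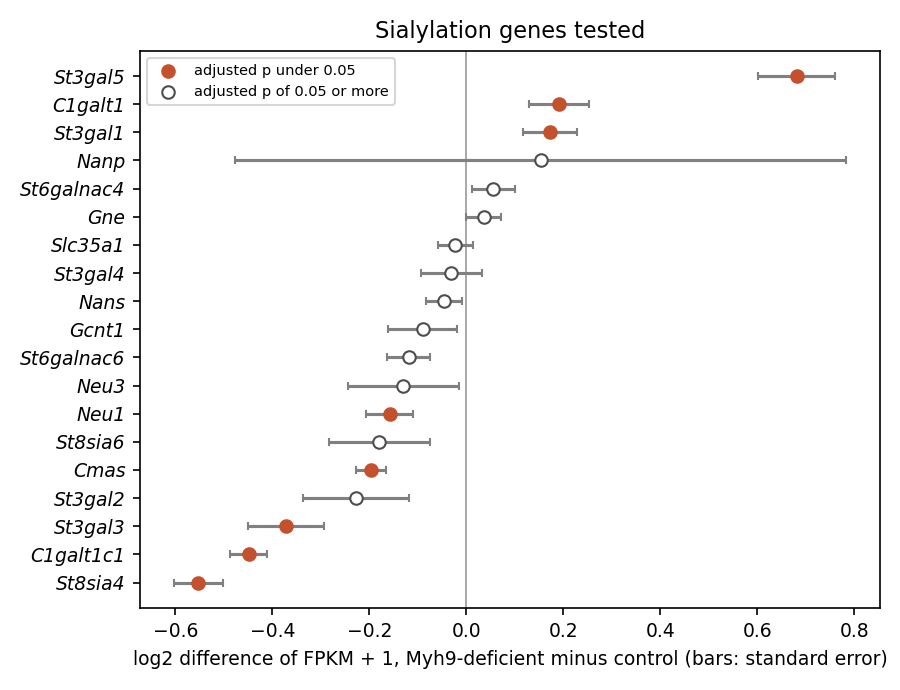
Log2 difference of FPKM + 1 (*Myh9*-deficient minus control, 3 libraries each) with its standard error for the 19 sialylation genes tested, filled where the limma adjusted p was under 0.05. The changes run from -0.55 for *St8sia4* to 0.68 for *St3gal5*, and *St6galnac2*, too low for the test, is not drawn.

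For *Trnp1*, the genes of the SWI/SNF complex and of TMF1 were taken as related to it. Of 28 genes, 23 were tested and 11 (47.8%) were called by limma, 1 higher and 10 lower in *Myh9*-deficient LSKs, with a median log2 difference of -0.12 and none at more than 2-fold. Over all genes tested 40.5% were called, 2295 higher and 2378 lower, so the share is near that of the whole table, and the split by direction was not tested. Without control replicate 1 the calls were 7, and without *Myh9*-deficient replicate 3 they were 6. *Bicral* (-0.46, limma adjusted p = 0.00712), *Arid1b* (-0.44, limma adjusted p = 0.00193) and *Arid1a* (-0.38, limma adjusted p = 0.00159), all subunits of the complex, fell the most on the log2 scale. *Arid1a* is also a neighbour of *Trnp1*, starting 188 kb from it. *Phf10*, a subunit of the PBAF form, rose (0.22, limma adjusted p = 0.0183), but it was not called without *Myh9*-deficient replicate 2 or without replicate 3. *Tmf1* itself, named here after its value was seen, measured 4.11 ± 0.071 and 3.56 ± 0.174 FPKM (SD, n = 3 each) (log2 difference -0.16, limma adjusted p = 0.0417). The largest of these changes, -0.46, compares with a log2 difference of 4.19 for *Trnp1*.

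The genes most like each of the 3 in pattern were found by the Euclidean distance between log2(FPKM + 1) values over the 6 libraries, each gene centred on its mean. For *Trnp1* these were immunoglobulin variable segments, *Ighv1-4* (distance 0.483), *Igkv3-7* (1.26), *Ighv1-5* (1.37), *Ighv6-6* (1.43) and *Igkv9-124* (1.50). For *BC018473* they were again such segments, *Igkv13-84* (0.302), *Igkv1-117* (0.309), *Igkv4-86* (0.384), *Ighv5-15* (0.420) and *Ighv14-1* (0.435). *Ighv1-4* had no control read, against 91, 79 and 91 in *Myh9*-deficient libraries, the closest match to *Trnp1*. For *St6galnac2*, whose low level keeps its difference at 0.80 on this scale, the nearest were *Gm48583* (0.0907), *Fkbp11* (0.0927), *Rbm3* (0.112), *Gm5111* (0.114) and *Add2* (0.125). The distance matches the size of the difference on this scale, and not the level or the ratio of means. *Rbm3* went from 108 to 195 FPKM, a ratio of 1.8, against 61.8 for *St6galnac2*. *Igkv1-117* had 214 control reads and a ratio of 7.25, against 1 control read and a ratio of 1638 for *BC018473*. The marker list of plasma cells and B cells moved with the 3 genes, its sum running from 38.9 to 39.6 FPKM in control, against 73.7 to 79.9 FPKM in *Myh9*-deficient libraries, with *Ms4a1* under 0.1 FPKM in every library. Other lists also moved with them. The sums were higher in *Myh9*-deficient libraries for erythroid (209 to 211 against 367 to 384 FPKM), megakaryocyte (56.2 to 59.9 against 124 to 129 FPKM, *Gp1bb* at 0), mast cell and basophil (76.5 to 88.8 against 135 to 143 FPKM), T and NK cell (0.653 to 1.52 against 3.2 to 3.73 FPKM) and macrophage genes (2.53 to 3.19 against 4.35 to 5.66 FPKM). The sum of neutrophil and monocyte genes was lower in *Myh9*-deficient libraries (122 to 128 against 88 to 105 FPKM), and that of endothelial and stromal genes overlapped between the groups (1.02 to 1.22 against 0.929 to 1.13 FPKM). The part of any of these cell types in the levels of *Trnp1*, *St6galnac2* and *BC018473* was not tested.

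Read as a near on-off pattern, a mean of at least 5 FPKM in a group and a lowest library there at least 5 times the highest of the other group, 20 of 7449 genes were higher in *Myh9*-deficient LSKs and 5 were lower. Of the 20, 14 were immunoglobulin segments, and *Trnp1* and *BC018473* were among the other 6. *St6galnac2* is too low for that rule. By reads, with at most 3 in every library of a group and at least 50 in every library of the other, a rule added after the values were seen, 6 of 11298 genes were higher in *Myh9*-deficient LSKs. These were *BC018473*, *St6galnac2*, *Gm42031*, *Ighv1-4*, *Ighv1-5* and *Ighv6-6*. In the reverse direction 1 gene passed, *Igkv1-122*, with 205 reads over the control group and 2 over the *Myh9*-deficient group. *Trnp1* is absent from this group because its control libraries held 19 to 30 reads.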

How the data were processed

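LSK RNA from 3 control and 3 *Myh9*-deficient cell sets was sequenced. FPKM values for each library, with gene lengths and mm10 coordinates, were deposited by the authors. The submitters' processing notes name HISAT2 2.0.5; the counting program and annotation are not given in the sources used here. The labels and the study's methods give different numbers of poly I:C doses.

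FPKM times gene length came out as whole multiples of 1 step for 100% of values above 0 (within 0.1 read), which gave reads and depth. The step does not restore reads that the authors' counting left out, and genes that share sequence may share or lose reads. Genes averaging 1 FPKM or more (11552) were tested on log2(FPKM + 1), a scale that understates changes of low genes, with limma 3.58.1 in R 4.3.3 (lmFit, eBayes with a trend, two-sided, no block, Benjamini-Hochberg over all genes tested, called at an adjusted p under 0.05). Voom on recovered reads was an alternative. Ratios of pooled reads of *Trnp1*, *BC018473* and *St6galnac2* have exact (Clopper-Pearson) 95% intervals. The fit was tested on simulated data. Transcripts were taken from GENCODE M21, promoters from RefSeq (GRCm38.p6). Other software was Python 3.11.15, pandas 2.3.3, numpy 2.4.6, scipy 1.17.1, matplotlib 3.10.9 and the data.table package (1.17.8).

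The 3 genes and the gene lists were chosen with earlier results of these data known. Named genes were the 3 genes, *Myh9*, the 5 nearest tested genes on each side, overlapping genes, called genes over 2-fold within 1 Mb, up to 3 called genes of each list in each direction, family members, near on-off genes, the 5 nearest genes in pattern and the markers. Some genes that the rule names are not reported here. Genes outside this rule are said to be chosen after their values were seen. Alternatives were a pseudocount of 0.1, no filter, a mean of 5 FPKM or more, median of ratios scaling, TPM, voom, a replicate block, other windows, over 2-fold with an unadjusted p under 0.05, and leaving out each library.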

Additional observations from a re-analysis of the deposited data

How the results depend on the processing

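The direction of the differences of *Trnp1*, *St6galnac2* and *BC018473* was the same under every alternative run, but their size on the log2 scale depends on the pseudocount: with 0.1 in place of 1 it was 5.17 for *Trnp1* (4.19 with 1), 2.95 for *St6galnac2* (0.80) and 5.68 for *BC018473* (2.63). Leaving out each library in turn gave 4.11 to 4.24, 0.78 to 0.84 and 2.60 to 2.67. At over 2-fold with an unadjusted p under 0.05, calls fell to 246 over the whole table, 0 near *Trnp1*, 2 near *St6galnac2*, 2 near *BC018473*, 0 among sialylation genes and 0 among SWI/SNF and TMF1 genes. In windows of 0.5 Mb, 9 of 18, 7 of 18 and 7 of 17 tested neighbours of *Trnp1*, *St6galnac2* and *BC018473* were called. In windows of 2 Mb these were 35 of 68, 30 of 75 and 30 of 74, against 4673 of 11552 (40.5%) over all genes tested. Near *Trnp1* the share called was above 40.5% in both windows, and that difference was not tested. SWI/SNF and TMF1 calls were 7 without the filter and 7 at a mean of at least 5 FPKM. Leaving out each library gave 3542 to 4108 calls over the whole table, 13 to 16 near *Trnp1*, 13 to 16 near *St6galnac2* and near *BC018473*, 5 to 7 sialylation genes (5 without control replicate 3, *Myh9*-deficient replicate 2 or replicate 3) and 6 to 9 SWI/SNF and TMF1 genes (7 without control replicate 1, 6 without *Myh9*-deficient replicate 3); the cause was not tested.

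Libraries with the same number did not deviate together (correlations -0.0046, -0.011 and -0.026), and 0 of 6 correlated best with their own number, so they share only a number. With a replicate block, 4107 genes were called (2063 higher, 2044 lower), 16 near *Trnp1*, 14 near *St6galnac2* and near *BC018473*, 7 sialylation genes and 8 SWI/SNF and TMF1 genes. Median of ratios scaling divided every library by the same 1.004. The deposited values were thus already on that scale, and this alternative could hardly change a result. Voom on recovered reads of the same 11552 genes called 5273 (2731 higher, 2542 lower). Near *Trnp1* it called 19 (10 higher, 9 lower), and near *St6galnac2* and near *BC018473* 18 each (9 higher, 9 lower). It called 9 sialylation genes and 12 SWI/SNF and TMF1 genes. Voom with at least 10 reads was chosen after seeing the data. At this depth the low neighbours rest on few reads: *Gm11735* had 1 read in *Myh9*-deficient replicate 2, and a control count of 0 allows up to 3 reads.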

Other observations

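Beside *Trnp1*, *BC018473* and 14 immunoglobulin segments, the genes that were near on-off and higher in *Myh9*-deficient LSKs were *H2-Aa* and *H2-Eb1*, which encode chains of MHC class II molecules (0.652 to 5.43 and 0.840 to 7.03 FPKM), *Hbb-bt*, an adult β-globin gene (3.65 to 37.4 FPKM), and *Xlr4a*, an X-linked lymphocyte-regulated gene (1.20 to 7.77 FPKM). Near on-off and lower were *Atf3*, a stress-response transcription factor gene (14.1 to 1.93 FPKM), *Hspa1b*, an inducible heat shock protein gene (7.73 to 0.656 FPKM), *Pcna-ps2*, typed as protein coding in the table and as a processed pseudogene in GENCODE M21 (27.7 to 3.65 FPKM), and 2 immunoglobulin segments. The non-coding gene *Gm42031* on chromosome 8, which passed only the rule on reads, had 4 reads over the control group and 218 over the *Myh9*-deficient group. These genes were picked by their values in this contrast, so they are given without a test.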
